A study of Mus musculus with 8 samples.

Results

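In CT26, a chemically induced mouse colon carcinoma line grown as transplanted tumours or in culture, 10 genes of foreign-compound metabolism were followed: Nqo1, Aldh3a1, Akr1c18, Cyp1b1, Tiparp, Gstm1, Gstp1, Gstp2, Gsta4 and Selenbp1. They were chosen by symbol as enzymes and targets of the AHR and NRF2 pathways, with earlier results of these data known, and all 10 symbols matched 1 identifier each among the 56953 gene identifiers of the count table. Which values led to the choice is not recorded. The effect of mLJZD on these genes, in tumours, in cultures and as the difference between both, is therefore given as a description without p-values. Where 1 of these genes is said to be called or not in these contrasts, that too is descriptive and shows how it depends on the fit. The series comprises 8 RNA-seq libraries in 4 groups of 2. Transplanted CT26 tumours received mLJZD or normal saline, and CT26 cultures received for 48 hours medium with 10% mLJZD-containing serum or 10% control serum. mLJZD is a drug preparation whose abbreviation the labels leave unexpanded, while the series title names nobiletin, a citrus flavone. Dose, route and duration in the animals, and the strain, age and sex of the hosts, are not stated in the labels. All groups derive from 1 cell line. Whether replicate libraries stem from different animals or dishes is nowhere stated, so a p-value here may reflect technical spread alone.

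Library totals were 18324302 and 16594912 counts in mLJZD tumours, 19692863 and 19793632 in saline tumours, 20439449 and 29363861 in mLJZD cultures, and 23426845 and 22196014 in control cultures. Levels are given as CPM, counts scaled to the same library total, and, where genes are compared with each other, as TPM, which also divides by the length of the gene's exons. The labels call the material colorectal cancer cells. Of the epithelial markers, Epcam and Cdx1 had no count in the 4 culture libraries, and Vil1 stayed at or below 0.0854 CPM there, whereas Krt20 was between 141.2 and 207.7 CPM and Krt18 between 29.2 and 39.0 CPM. In tumours Epcam lay between 0.356 and 0.873 CPM, and Krt18 at 1.86 and 2.23 CPM in mLJZD tumours, against 16.6 and 15.8 CPM in saline tumours. The 10 macrophage markers summed to between 2470 and 2759 CPM in tumour libraries, against between 8.74 and 11.4 CPM in culture libraries, so a tumour value is the sum over host and cancer cells. In such bulk material fewer cells of a type and less RNA per cell cannot be told apart.

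Most of these genes encode enzymes that act on foreign or reactive molecules. AHR, a ligand-activated transcription factor, pairs with ARNT on xenobiotic response elements and drives Cyp1b1, a cytochrome P450 that oxidises aromatic compounds and oestrogens, and Tiparp, an ADP-ribosyltransferase that feeds back on AHR. Aldh3a1 oxidises aromatic and fatty aldehydes, Nqo1 reduces quinones to hydroquinones, and Akr1c18 is an aldo-keto reductase that inactivates progesterone in the mouse. NRF2, encoded by Nfe2l2 and held down by KEAP1, binds antioxidant response elements and drives Nqo1 and many glutathione transferases, which join glutathione to electrophiles. Gstm1, Gstp1, Gstp2 and Gsta4 are such transferases of the mu, pi and alpha classes, Gsta4 being active on aldehydes from lipid peroxidation. Selenbp1 encodes a selenium-binding protein that oxidises methanethiol.

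Gstp1 and Gstp2, both on chromosome 19, are near copies, and their sequences are shown because the counts of 1 can hold reads of the other. Over 633 coding bases each, the GENCODE M21 transcripts differed at 12 positions, an identity of 98.1%, and the longest run without a difference was 303 bases. Of the 12 differences 6, in capitals, lie in the first 60 coding bases:
Gstp1: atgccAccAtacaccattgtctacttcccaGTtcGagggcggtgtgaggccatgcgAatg
Gstp2: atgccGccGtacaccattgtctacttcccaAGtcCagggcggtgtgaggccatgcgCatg
Of all 100-base stretches, 52.8% of the Gstp1 transcript and 63.5% of the Gstp2 transcript were found in another gene, in Gstp2 or Gstp1 and in the pseudogene Gstp-ps. The same share was 21.3% for Selenbp1, all in Selenbp2, 7.73% for Gstm1, 3.06% for Tiparp, and 0% for Nqo1, Aldh3a1, Akr1c18, Cyp1b1 and Gsta4. How reads that map to several places were counted is not stated, so values of Gstp1, Gstp2 and Selenbp1 are uncertain to that extent.

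Upstream of the start sites the pi-class copies are less alike. The 250 bases before the start, from RefSeq on GRCm38.p6 in the direction of the gene, had an identity of 78.1% between Gstp1 (chr19:4037913-4038162, minus strand) and Gstp2 (chr19:4042222-4042471, minus strand). They are printed with those of Cyp1b1 (chr17:79715062-79715311, minus strand) and Tiparp (chr3:65528197-65528446, plus strand), a pair of AHR targets, the first with no count in cultures and the second at a like level in both materials. Capitals mark the core of the xenobiotic response element, GCGTG, or CACGC on the other strand:
Gstp1: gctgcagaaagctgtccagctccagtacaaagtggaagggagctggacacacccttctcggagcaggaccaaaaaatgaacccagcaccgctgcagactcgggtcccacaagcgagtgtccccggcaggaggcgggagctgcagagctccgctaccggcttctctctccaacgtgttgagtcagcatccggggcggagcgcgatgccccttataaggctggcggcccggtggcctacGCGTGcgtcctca
Gstp2: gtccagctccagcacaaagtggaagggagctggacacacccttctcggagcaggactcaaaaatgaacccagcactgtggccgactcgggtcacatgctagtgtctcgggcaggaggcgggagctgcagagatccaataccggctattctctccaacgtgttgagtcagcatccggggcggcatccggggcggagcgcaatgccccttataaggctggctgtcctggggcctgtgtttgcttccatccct
Cyp1b1: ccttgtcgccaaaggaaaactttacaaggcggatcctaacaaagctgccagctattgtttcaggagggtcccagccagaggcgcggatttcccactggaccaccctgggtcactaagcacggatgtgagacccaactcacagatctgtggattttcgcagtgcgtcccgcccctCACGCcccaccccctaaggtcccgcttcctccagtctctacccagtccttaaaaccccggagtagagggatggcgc
Tiparp: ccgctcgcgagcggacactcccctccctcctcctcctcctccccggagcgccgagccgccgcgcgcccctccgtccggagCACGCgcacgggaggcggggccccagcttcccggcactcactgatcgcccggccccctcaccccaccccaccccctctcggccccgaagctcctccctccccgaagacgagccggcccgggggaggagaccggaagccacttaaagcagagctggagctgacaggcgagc
The core began 13 bases before the start in Gstp1, 76 bases before it in Cyp1b1 and 170 bases before it in Tiparp, and was not among these letters in Gstp2. Promoter windows were at hand for 8 of the 10 genes. Gstm1 and Selenbp1 also held the core, and Nqo1 and Akr1c18 did not. A match is common: 28.2% of 32851 promoter windows of the same length held the core on 1 strand or the other. The antioxidant response element core was sought only as TGACNNNGC on either strand. That form was in none of the windows of these 8 genes, against 10.2% of all windows. Variants of these letters were not sought, such as tgagtcagc, which the printed windows of Gstp1 and Gstp2 both hold. These matches describe letters and do not mark binding sites.

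Per length, Gstp1 was the most abundant of the 10 in every group, at 259.9 ± 12 TPM (SD, n = 2, as for all means below) in mLJZD tumours, 245.0 ± 16.9 TPM in saline tumours, 600.5 ± 64.3 TPM in mLJZD cultures and 923.6 ± 17.6 TPM in control cultures. The order below it differed with the material. In mLJZD tumours Tiparp (72.6 ± 2.65 TPM), Gstm1 (59.7 ± 1.83 TPM) and Aldh3a1 (37.9 ± 0.417 TPM) followed, whereas saline tumours had Aldh3a1 second at 121.7 ± 7.28 TPM, then Gstm1 at 83.1 ± 1.95 TPM and Tiparp at 51.1 ± 1.73 TPM. Gstp2 was last in mLJZD tumours (0.721 ± 0.175 TPM) and sixth in saline tumours (12.4 ± 1.42 TPM), and Akr1c18 was seventh in mLJZD tumours (7.89 ± 0.138 TPM) and last in saline tumours (0.401 ± 0.00292 TPM). In mLJZD cultures Gstm1, Tiparp and Gsta4 came next to Gstp1, at 79.7 ± 7.93, 69.7 ± 6.03 and 52.4 ± 4.85 TPM, against 136.9 ± 2.04 TPM for Gstm1, 40.6 ± 1.89 TPM for Tiparp and 68.9 ± 6.42 TPM for Gsta4 in control cultures. Neighbours in these orders did not overlap between libraries, except Akr1c18 and Cyp1b1 in mLJZD cultures and, in control cultures, Aldh3a1 with Nqo1, Nqo1 with Selenbp1, and Gstp2 with Akr1c18.

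**Figure D1:**
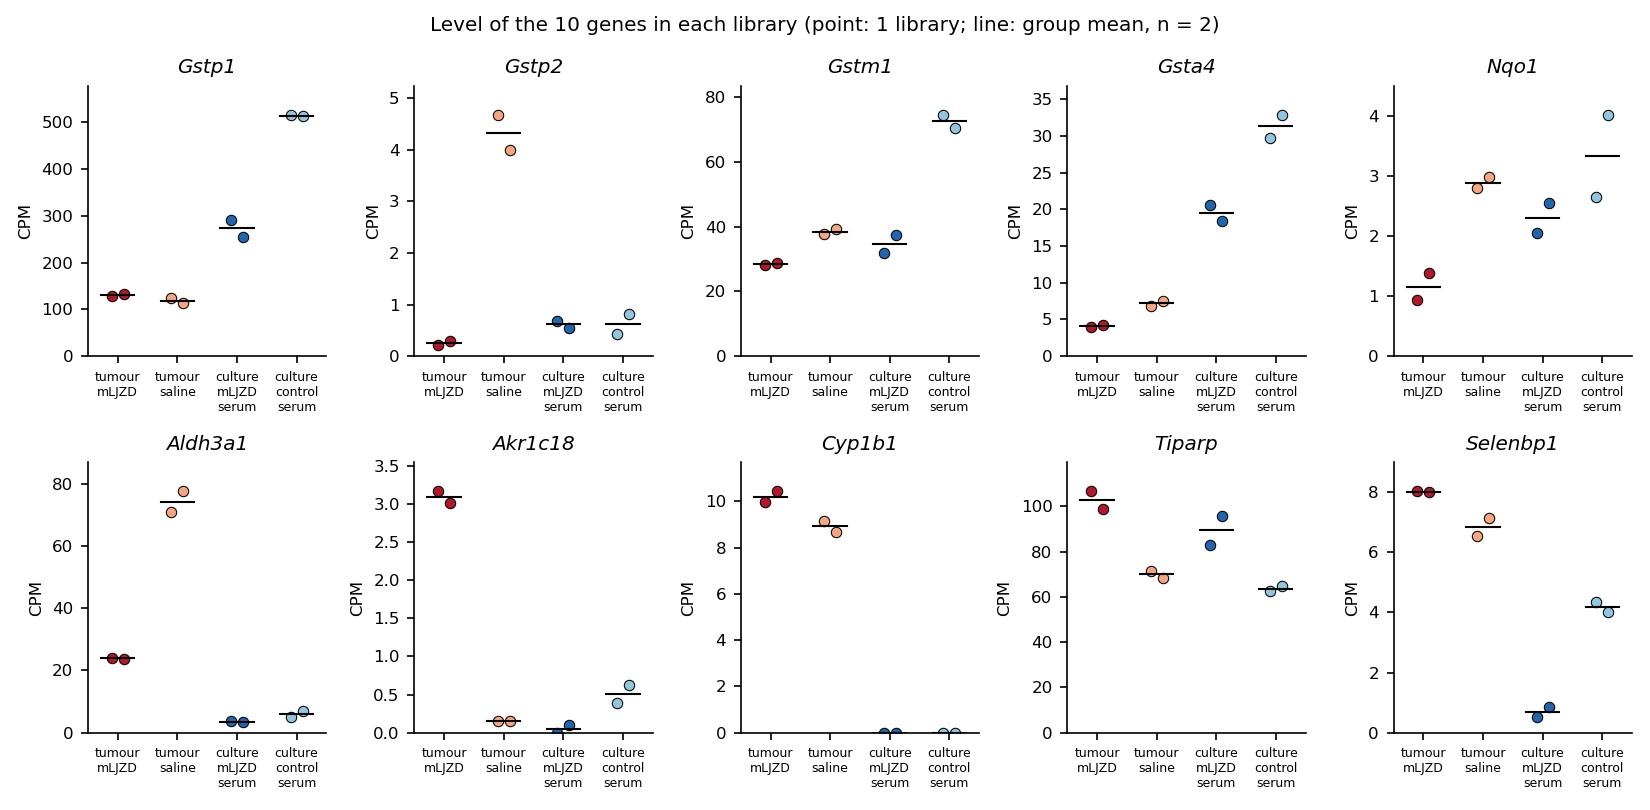
Level of each of the 10 genes in CPM (vertical axis, starting at 0 and scaled per gene) in the 8 libraries, by group; each point is 1 library and each line the mean of 2. Cyp1b1 stands at 0 in all culture libraries, Akr1c18 at 3.17 and 3.01 CPM in mLJZD tumours against 0.152 CPM in both saline tumours, and Gstp2 at 3.99 CPM and above in saline tumours alone.

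The first question the design poses is what mLJZD does to these genes in tumours. All 10 genes passed the filter on low counts there. Of these, 3 were called higher and 5 lower by edgeR's quasi-likelihood test at an adjusted p under 0.05, while over all 15417 genes tested 31.4% were called, 15.4% higher and 16% lower. Since the genes may have been chosen on this contrast, nothing is read from that count. It also leans on single libraries: leaving out library 1 of the mLJZD tumours left 2 called lower, and leaving out library 2 left 3, with Nqo1, Gstm1 and Gsta4 no longer called without library 1 and Gstm1 and Gsta4 without library 2. The log2 fold changes of these genes stayed between -1.58 and -0.36 over all alternatives. A fold change is mLJZD over saline, with its standard error (SE).

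Among AHR targets, Cyp1b1 (ENSMUSG00000024087, chromosome 17) had 9.99 and 10.4 CPM in mLJZD tumours, against 9.14 and 8.69 CPM in saline tumours. Both mLJZD libraries lay above both saline libraries, and the log2 fold change of 0.23 (SE 0.14) was not called. Tiparp (ENSMUSG00000034640, chromosome 3) had 106.5 and 98.7 CPM in mLJZD tumours, against 71.4 and 68.4 CPM in saline tumours. The groups were well apart, with a log2 fold change of 0.59 (SE 0.05). Aldh3a1 (ENSMUSG00000019102, chromosome 11) had 24.0 and 23.7 CPM in mLJZD tumours, against 70.8 and 77.5 CPM in saline tumours. Its libraries differed little within a group, and the log2 fold change was -1.60 (SE 0.07). Cyp1a1, the classical AHR target, had no count in either mLJZD tumour and 0.152 CPM in both saline tumours, too few to compare. Thus Cyp1b1, Tiparp and Aldh3a1 had no common direction in tumours.

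The reductases moved apart as well. Nqo1 (ENSMUSG00000003849, chromosome 8), present at low level, had 0.928 and 1.39 CPM in mLJZD tumours, from 17 and 23 counts, against 2.79 and 2.98 CPM in saline tumours, from 55 and 59 counts. Both mLJZD libraries lay well below both saline libraries, a log2 fold change of -1.29 (SE 0.32). Akr1c18 (ENSMUSG00000021214, chromosome 13) had 58 and 50 counts in mLJZD tumours, or 3.17 and 3.01 CPM, against 3 counts in each saline tumour, or 0.152 CPM. This was a ratio of 20.4 with an exact 95% interval of 9.05 to 56.7, which covers counting error only, and a fitted log2 fold change of 4.32 (SE 0.46). Saline tumours stood at the lower edge of what these libraries can count.

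Of the transferases, Gstp2 (ENSMUSG00000038155) differed most in tumours. It had 4 and 5 counts in mLJZD tumours, or 0.218 and 0.301 CPM, against 92 and 79 counts in saline tumours, or 4.67 and 3.99 CPM. The ratio of the levels was 0.0595 (exact 95% interval 0.0268 to 0.116), a log2 fold change of -4.00 (SE 0.39). Gstp1 (ENSMUSG00000060803) had 127.8 and 133.1 CPM in mLJZD tumours, against 124.5 and 113.5 CPM in saline tumours. Its difference was small and close to the spread within saline tumours, with a log2 fold change of 0.16 (SE 0.06) that was called in the chosen fit and not in 9 of 11 alternatives, nor when Gstp1, Gstp2 and Gstp3 were summed to 1 gene (0.11, SE 0.06). Gstp2 therefore held 0.171% and 0.226% of the joint Gstp1 and Gstp2 counts in mLJZD tumours, against 3.62% and 3.40% in saline tumours. The 95% Wilson intervals, which cover counting error only, ran up to 0.528% in mLJZD tumours and from 2.73% in saline tumours. Gstp3, the more distant copy, had 11 and 7 counts in mLJZD tumours, against 30 and 19 counts in saline tumours, and was not called. The pseudogene Gstp-ps had 173 and 127 counts in mLJZD tumours, against 176 and 203 in saline tumours.

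Gstm1 (ENSMUSG00000058135, chromosome 3) had 28.3 and 28.8 CPM in mLJZD tumours, against 37.7 and 39.2 CPM in saline tumours. Gsta4 (ENSMUSG00000032348, chromosome 9) had 3.98 and 4.28 CPM in mLJZD tumours, against 6.80 and 7.58 CPM in saline tumours. Neither gene overlapped between the groups, and the log2 fold changes were -0.40 (SE 0.08) for Gstm1 and -0.77 (SE 0.18) for Gsta4. Selenbp1 (ENSMUSG00000068874, chromosome 3) had 8.02 and 8.01 CPM in mLJZD tumours, against 6.55 and 7.12 CPM in saline tumours, a log2 fold change of 0.26 (SE 0.15) that was not called. Its near copy Selenbp2 had 9 counts in each mLJZD tumour, against 4 and 5 counts in saline tumours.

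Markers of some other cells also differed between the same tumours. Of 14 skeletal muscle markers 13 were tested and 12 were lower under mLJZD. They summed to 561.8 and 562.2 CPM in mLJZD tumours, against 3112 and 3153 CPM in saline tumours, with Acta1 the most abundant and Tnnc2 at 0 in every tumour library. The 9 adipocyte markers summed to 59.9 and 61.3 CPM in mLJZD tumours, against 79.4 and 79.6 CPM in saline tumours, and Adipoq, Plin1, Cidec, Lep and Retn were at 0 in mLJZD tumours, with Lep and Retn also at 0 in saline tumours. Neutrophil markers summed to 38.2 and 36.4 CPM in mLJZD tumours, against 19.2 and 19.1 CPM in saline tumours, B and plasma cell markers to 383.4 and 348.4 CPM against 48.1 and 49.6 CPM, and erythroid markers to 47.2 and 43.8 CPM against 22.2 and 18.2 CPM. The 10 genes of the carcinoma list summed to 183.7 and 185.9 CPM in mLJZD tumours, against 301.1 and 295.9 CPM in saline tumours, with Krt8, Krt18 and Krt20 lower among 5 tested. The part of these cells in the differences of Gstp2, Aldh3a1, Akr1c18 and the other genes was not tested. Of 8 endothelial markers 0 were called, and they summed to 248.5 and 245.4 CPM in mLJZD tumours, against 243.7 and 244.2 CPM in saline tumours. Of 8 T cell markers 2 were lower. Of 10 macrophage markers 1 was higher and 3 lower, and of 10 fibroblast markers 4 were higher and 1 lower, while 31.4% of all genes tested were called. The 8 hepatocyte markers summed to 1.26 CPM or less in every library.

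In cultures the question is what mLJZD-containing serum did to the cancer cells without host tissue. Of the 10 genes 8 passed the filter, Akr1c18 and Cyp1b1 not. They gave 1 call of higher and 5 of lower, while over all 13299 genes tested 55.4% were called, 28.8% higher and 26.6% lower, and again nothing is read from the count. Fold changes in cultures ran with transcript length: the median log2 fold change was -0.76 for transcripts under 1000 bases and 1.00 for those over 8000 bases. Culture fold changes of the 8 genes are therefore also given after this trend and that with GC content were removed. Then 0 of the 8 genes were called higher. Part of the length trend stayed: the median was then -0.35 for transcripts under 1000 bases and 0.12 for those over 8000 bases. Values with the trend removed are to be read within this limit. The transcripts of Gstp1, Gstp2 and Gsta4 are under 1000 bases.

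Gstp1, the most abundant, had 291.2 and 255.6 CPM in mLJZD cultures, against 515.4 and 512.2 CPM in control cultures. Both mLJZD libraries lay far below both control libraries, with a log2 fold change of -0.97 (SE 0.08) and of -0.41 (SE 0.07) with the trend removed. The medians of its length class, under 1000 bases, were -0.76 and -0.35 in the same order. Gstp2 had 14 and 16 counts in mLJZD cultures, against 10 and 18 counts in control cultures, or 0.685 and 0.545 CPM against 0.427 and 0.811 CPM. Here the libraries of the groups overlapped, and the ratio was 0.982 (exact 95% interval 0.567 to 1.71). The log2 fold change was -0.07 (SE 0.57), or 0.43 (SE 0.56) with the trend removed, and neither was called. Its share of the joint counts was 0.235% and 0.213% in mLJZD cultures, against 0.0828% and 0.158% in control cultures. These are close to the share in mLJZD tumours and far below that in saline tumours. Gstp3 had no count in any culture.

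Gstm1 had 31.8 and 37.4 CPM in mLJZD cultures, against 74.5 and 70.6 CPM in control cultures. Gsta4 had 20.6 and 18.5 CPM in mLJZD cultures, against 29.8 and 32.8 CPM in control cultures. Both genes were clearly separated, with log2 fold changes of -1.12 (SE 0.10) for Gstm1 and -0.74 (SE 0.11) for Gsta4, and of -0.66 (SE 0.09) and -0.43 (SE 0.11) in that order with the trend removed. Gsta4 is of the same length class as Gstp1, and its values were close to the medians of that class, -0.76 and -0.35. Selenbp1 had 0.538 and 0.851 CPM in mLJZD cultures, from 36 counts in all, against 4.35 and 4.01 CPM in control cultures, from 191 counts in all. It had the largest difference of the 8 genes, a log2 fold change of -2.60 (SE 0.36) and of -2.17 (SE 0.35) with the trend removed. Selenbp2 had no count in any culture.

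Nqo1 had 2.05 and 2.55 CPM in mLJZD cultures, against 2.65 and 4.01 CPM in control cultures. The nearest libraries of the groups were close, and the log2 fold change of -0.57 (SE 0.31), or -0.42 (SE 0.31) with the trend removed, was not called. Aldh3a1 had 3.62 and 3.34 CPM in mLJZD cultures, against 4.99 and 6.89 CPM in control cultures. Its log2 fold change of -0.83 (SE 0.24) was no longer called with the trend removed (-0.46, SE 0.23) or without library 2 of the control cultures (-0.59, SE 0.31). Tiparp had 83.1 and 95.9 CPM in mLJZD cultures, against 62.5 and 64.6 CPM in control cultures, a log2 fold change of 0.44 (SE 0.09). With the trend removed it was 0.08 (SE 0.08), and the gene was not called. Akr1c18 had 0 and 3 counts in mLJZD cultures, against 9 and 14 counts in control cultures, a ratio of 0.12 (exact 95% interval 0.0230 to 0.396). In tumours its ratio lay on the other side of 1. Cyp1b1 had no count in any of the 4 culture libraries, which allows up to 3 counts in a group.

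**Figure D2:**
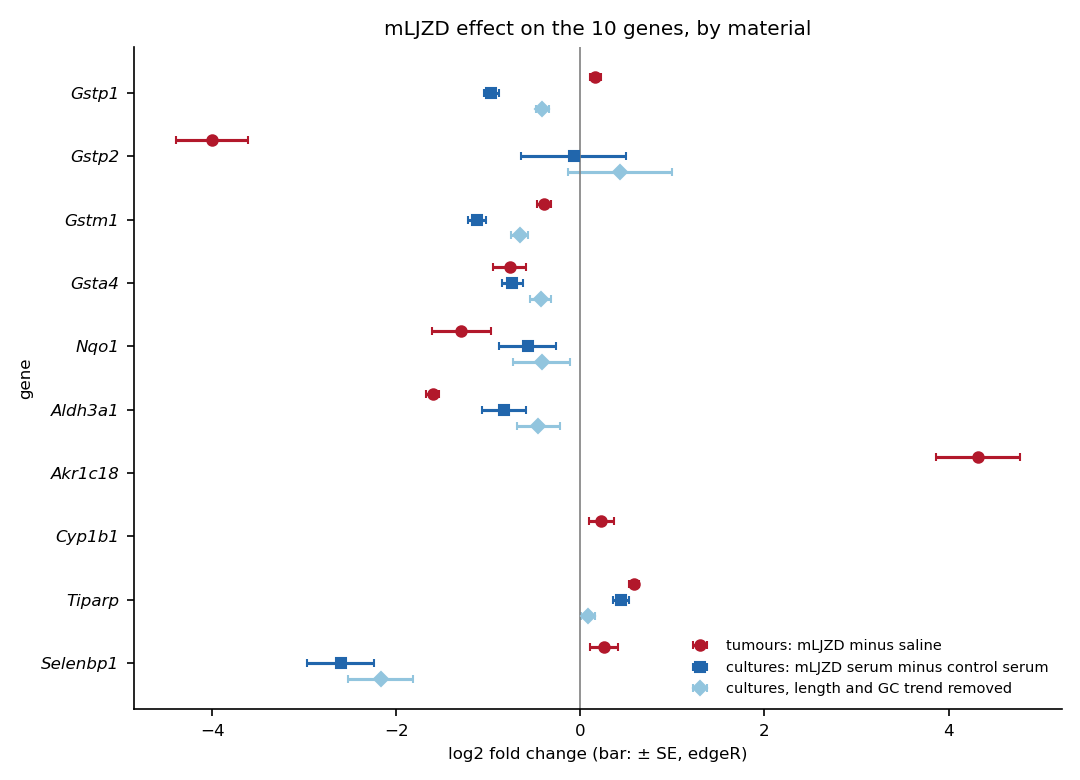
Log2 fold change under mLJZD (horizontal axis; bars are ± SE from edgeR) of each of the 10 genes (vertical axis) in tumours, in cultures and in cultures after removal of the length and GC trend. Gstp2 (-4.00), Akr1c18 (4.32) and Aldh3a1 (-1.60) stand out in tumours and Selenbp1 (-2.60) in cultures, and with the trend removed culture values shift upward for the genes other than Tiparp, which shifts down to 0.08; Akr1c18 and Cyp1b1 were not tested in cultures.

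Summed over the 27 measured glutathione transferase genes, 4 of the 10 and 23 others, the level was 464.5 and 477.4 CPM in mLJZD tumours, against 590.6 and 566.9 CPM in saline tumours. In mLJZD cultures it was 703.3 and 712.1 CPM, against 1095 and 1099 CPM in control cultures. The mLJZD sums were below their controls in both materials, without removal of the length and GC trend. Gstp1 alone made up 27.5% and 27.9% of the sum in mLJZD tumours, against 21.1% and 20% in saline tumours. In mLJZD cultures its part was 41.4% and 35.9%, against 47.1% and 46.6% in control cultures. Gsto1 was at 137.9 ± 4.52 CPM in mLJZD tumours, against 205.7 ± 4.65 CPM in saline tumours, and Gstp1 was not lower there. The sums include the 4 genes that may have been chosen on these contrasts.

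**Figure D3:**
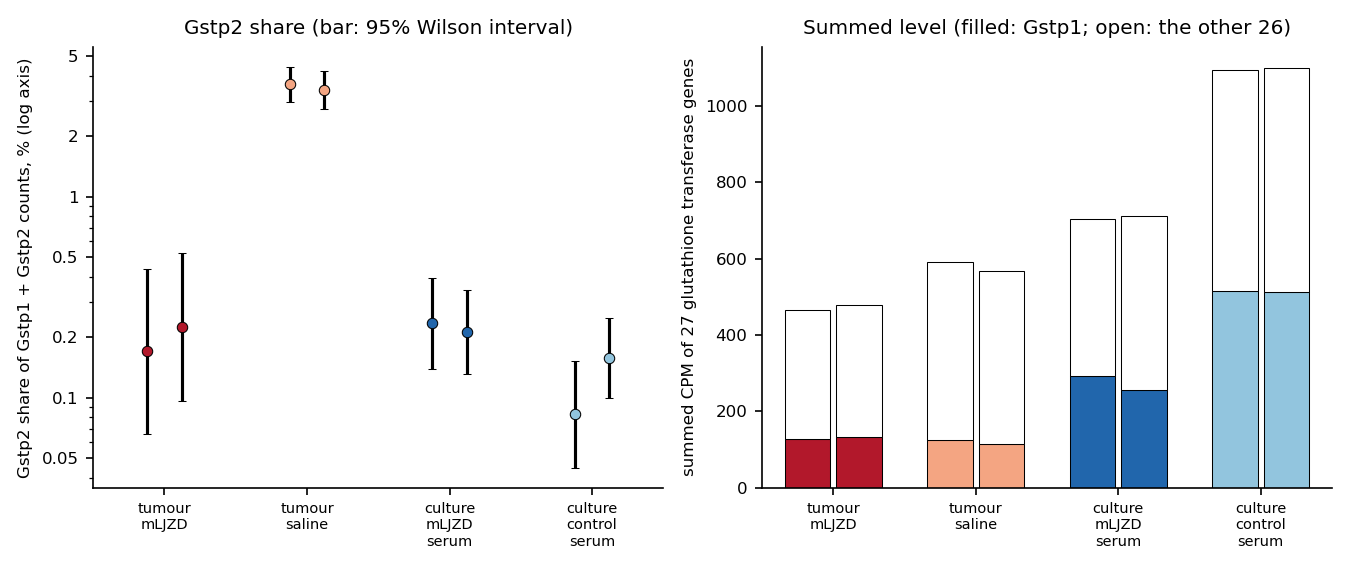
Left, the share of Gstp2 in the joint Gstp1 and Gstp2 counts of each library in percent (log axis; bars are 95% Wilson intervals); right, the summed CPM of 27 glutathione transferase genes per library, with the part from Gstp1 filled. The saline tumours stand apart on the left at 3.62% and 3.40%, and the control cultures are highest on the right at 1095 and 1099 CPM.

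The other transferases were not among the 10 genes, but their list too was written with earlier results of these data known. Those named below were picked as called genes with the largest changes, so their p-values do not come from an independent choice. Of 23, 16 were tested in tumours, with 1 higher, 3 lower and a median log2 fold change of -0.37, against a median of 9e-04 over all genes tested. Over all genes tested, 31.4% were called in tumours and 55.4% in cultures. Gsto1, an omega-class transferase, had 134.7 and 141.1 CPM in mLJZD tumours, against 209.0 and 202.4 CPM in saline tumours, a log2 change of -0.54 (SE 0.05, edgeR adjusted p = 6.52e-07). The microsomal Mgst2, which can form leukotriene C from its precursor, had 9.88 and 8.56 CPM in mLJZD tumours, against 16.1 CPM in both saline tumours (log2 fold change -0.77, SE 0.13, edgeR adjusted p = 0.000167). Mgst1, another microsomal transferase, rose to 7.48 and 7.11 CPM in mLJZD tumours, against 5.08 and 5.36 CPM in saline tumours (0.52, SE 0.17, edgeR adjusted p = 0.0249). That call did not hold with DESeq2, without the filter, in 1 fit of all libraries, or with any of the 4 tumour libraries left out (log2 fold changes between 0.47 and 0.57, adjusted p between 0.0566 and 0.157 in edgeR and DESeq2). In cultures 9 of the 23 were tested, with 1 higher, 6 lower and a median of -0.53, against -0.013 over all genes. Mgst3 fell to 9.44 and 11 CPM in mLJZD cultures, against 23.3 and 21.9 CPM in control cultures, a log2 change of -1.20 (SE 0.14, edgeR adjusted p = 4.85e-06), and Gstm5 by a log2 change of -1.27 (SE 0.34, edgeR adjusted p = 0.00587), or -0.82 for Mgst3 and -0.93 for Gstm5 with the trend removed. With the trend removed 4 were lower and none higher, and the rise of Gstcd (0.29, SE 0.10, edgeR adjusted p = 0.0219) was not called (0.11, SE 0.09), nor was it with upper-quartile scaling (0.18), without library 2 of the mLJZD cultures (0.16) or without library 1 of the control cultures (0.21).

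The receptors and regulators upstream were described next, from lists written with earlier results of these data known. Ahr had 108.4 and 120.5 CPM in mLJZD tumours, against 117.6 and 126.3 CPM in saline tumours, and the groups overlapped (log2 fold change -0.06, SE 0.06, edgeR adjusted p = 0.490). Its partner Arnt likewise passed no threshold in tumours (0.11, SE 0.05, edgeR adjusted p = 0.123). Ahrr, the AHR repressor and itself an AHR target, was at or below 0.657 CPM in tumours and had no count in cultures. In cultures Ahr had 34.7 and 36.9 CPM with mLJZD serum, against 23.1 and 24.4 CPM with control serum, a rise (0.54, SE 0.10, edgeR adjusted p = 0.000481) that was gone with the trend removed (-0.0015). Arnt rose to 86.0 and 77.5 CPM in mLJZD cultures, against 46.5 and 53.6 CPM in control cultures (0.65, SE 0.09, edgeR adjusted p = 3.01e-05), and to a log2 fold change of 0.37 with the trend removed. Over the 13 genes of the AHR list, 9 were tested in tumours, with 0 higher, 2 lower (Ugt1a7c and Xdh) and a median of -0.044. In cultures 9 were tested as well, with 2 higher, 1 lower and a median of 0.048. The shares called over all genes tested were 31.4% in tumours and 55.4% in cultures. Xdh, xanthine dehydrogenase, had 242.5 and 258.1 CPM in mLJZD tumours, against 357.6 and 354.8 CPM in saline tumours (-0.48, SE 0.05, edgeR adjusted p = 9.27e-07). Ugt1a7c, a glucuronosyltransferase, had a log2 fold change of -0.51, and its call was lost with DESeq2, without library 1 (-0.51) or library 2 (-0.50) of the mLJZD tumours and without library 2 of the saline tumours (-0.48).

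Nfe2l2, which encodes NRF2, was not called in tumours (log2 fold change -0.08, SE 0.05, edgeR adjusted p = 0.268) or in cultures (-0.19, SE 0.08, edgeR adjusted p = 0.0589). It was called lower in tumours with the trend removed (-0.13), and in cultures with upper-quartile scaling (-0.31), in 1 fit of all libraries (-0.27) and without library 2 of the mLJZD cultures (-0.27). Keap1 was slightly lower in mLJZD tumours (-0.22, SE 0.05, edgeR adjusted p = 0.00287) and not called in cultures. Its tumour call was lost without library 1 (-0.27) or library 2 (-0.17) of the mLJZD tumours and without library 2 of the saline tumours (-0.19). Bach1, a repressor that competes with NRF2, differed in sign: its log2 fold change was -0.31 (SE 0.05, edgeR adjusted p = 7.13e-05) in tumours and 1.13 (SE 0.11, edgeR adjusted p = 7.23e-07) in cultures, or 0.55 there with the trend removed. The tumour call was lost without library 1 of the mLJZD tumours (-0.35). The difference between materials was -1.35 (SE 0.10, edgeR interaction test over 8 libraries, adjusted p = 2.73e-08), or -0.84 with the trend removed. Of the 10 NRF2 regulators 3 were higher and 4 lower in tumours, and 2 higher and 3 lower in cultures, where 55.4% of all genes tested were called, against 31.4% in tumours. With the trend removed Cul3 (0.026) and Maff (0.020) were among those no longer called in cultures, and 2 were higher and 2 lower.

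Of 22 further NRF2 targets, all tested in tumours, 8 were higher and 2 lower, with a median log2 fold change of 0.034. The cystine carrier Slc7a11 rose to 24.5 ± 0.510 CPM in mLJZD tumours, against 18.2 ± 0.997 CPM in saline tumours (0.46, SE 0.10, edgeR adjusted p = 0.00154), and haem oxygenase Hmox1 to 78.6 ± 5.75 CPM, against 64.3 ± 0.878 CPM (0.33, SE 0.06, edgeR adjusted p = 0.000374). Both calls were lost without library 1 of the mLJZD tumours (0.43 for Slc7a11 and 0.24 for Hmox1), and that of Slc7a11 also without library 2 (0.50). The pump Abcc4 fell by a log2 change of -0.50 (SE 0.06, edgeR adjusted p = 5.86e-06) in tumours. In cultures 20 were tested, with 4 higher, 11 lower and a median of -0.21. With the trend removed 3 were higher and 8 lower. Among all genes tested 31.4% were called in tumours and 55.4% in cultures. Fth1, the ferritin heavy chain, fell to 2030 ± 100 CPM in mLJZD cultures, against 3625 ± 189 CPM in control cultures (-0.89, SE 0.08, edgeR adjusted p = 5e-07), and Osgin1 by a log2 change of -0.90 (SE 0.15, edgeR adjusted p = 0.00014). With the trend removed these were -0.71 for Fth1 and -0.42 for Osgin1. Abcc4 rose there by 0.82 (SE 0.08, edgeR adjusted p = 8.35e-07), or by 0.37 with the trend removed. Slc7a11 rose by 0.76 (SE 0.11, edgeR adjusted p = 4.48e-05), which turned to -0.24 with the trend removed.

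Relatives of the other members gave smaller counts, which stand beside 31.4% of all genes tested called in tumours and 55.4% in cultures. Among 16 aldo-keto reductases other than Akr1c18, 8 were tested in tumours, with 1 higher and 2 lower, and 10 in cultures, with 0 higher and 6 lower. Akr1c13, from the same cluster as Akr1c18, fell to 1.88 ± 0.354 CPM in mLJZD tumours, against 6.58 ± 1.05 CPM in saline tumours (log2 fold change -1.77, SE 0.24, edgeR adjusted p = 1.73e-05), a call lost without library 1 of the mLJZD tumours (-1.99). Among 19 aldehyde dehydrogenases other than Aldh3a1, 2 were higher and 3 lower of 14 tested in tumours, and 2 higher and 4 lower of 13 tested in cultures. Aldh1a2, a retinal dehydrogenase, fell to 3.10 ± 0.552 CPM in mLJZD tumours, against 9.88 ± 0.824 CPM in saline tumours (-1.63, SE 0.18, edgeR adjusted p = 2.75e-06), and was at 0 in cultures. The mitochondrial Aldh1l2 rose in both materials, by 0.35 (SE 0.05, edgeR adjusted p = 7.83e-05) in tumours and by 1.32 (SE 0.08, edgeR adjusted p = 1.05e-08) in cultures, or by 0.74 there with the trend removed. Of 22 cytochromes P450 and their electron donors, 4 were higher and 4 lower of 17 tested in tumours, with Cyp3a13 at 1.80 ± 0.239 CPM in mLJZD tumours against 0.431 ± 0.0374 CPM in saline tumours (2.08, SE 0.43, edgeR adjusted p = 0.00112), and 0 higher and 5 lower of 13 in cultures. The call of Cyp3a13 was lost without library 1 of the mLJZD tumours (1.92).

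The remaining lists covered conjugation and export. Their counts stand beside the same shares over all genes tested, 31.4% called in tumours and 55.4% in cultures. Of 20 conjugating enzymes 2 were higher and 1 lower of 8 tested in tumours, and 0 higher and 2 lower of 6 in cultures. Nnmt, which methylates nicotinamide, differed in sign between tumours (0.34, SE 0.11, edgeR adjusted p = 0.0302) and cultures (-0.94, SE 0.13, edgeR adjusted p = 2.15e-05), a difference of 1.37 (SE 0.17, edgeR interaction test, adjusted p = 6.49e-06). With the trend removed the culture value was -0.55 and the difference 1.03. The tumour call was lost in 8 alternatives, with log2 fold changes between 0.22 and 0.35, among them those without library 1 (0.35) or library 2 (0.34) of the mLJZD tumours and without library 2 of the saline tumours (0.22). Of the 6 efflux pumps 5 were tested in tumours, with 1 higher and 3 lower, and 3 in cultures, all higher. Abcb1a, a drug efflux pump, fell to 102.5 ± 0.254 CPM in mLJZD tumours, against 150.8 ± 2.26 CPM in saline tumours (-0.52, SE 0.05, edgeR adjusted p = 8.89e-07), and rose to 94.0 ± 4.21 CPM in mLJZD cultures, against 54.6 ± 0.659 CPM in control cultures (0.73, SE 0.08, edgeR adjusted p = 3.27e-06), or by 0.27 with the trend removed. The difference of its effects was -1.17 (SE 0.09, edgeR interaction test, adjusted p = 4.38e-08), or -0.75 with the trend removed. Nqo2, the only relative of Nqo1 listed, was lower in mLJZD tumours (-0.34, SE 0.07, edgeR adjusted p = 0.00146), a call lost without library 1 (-0.35) or library 2 (-0.32) of the mLJZD tumours and without library 1 of the saline tumours (-0.24).

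**Figure D4:**
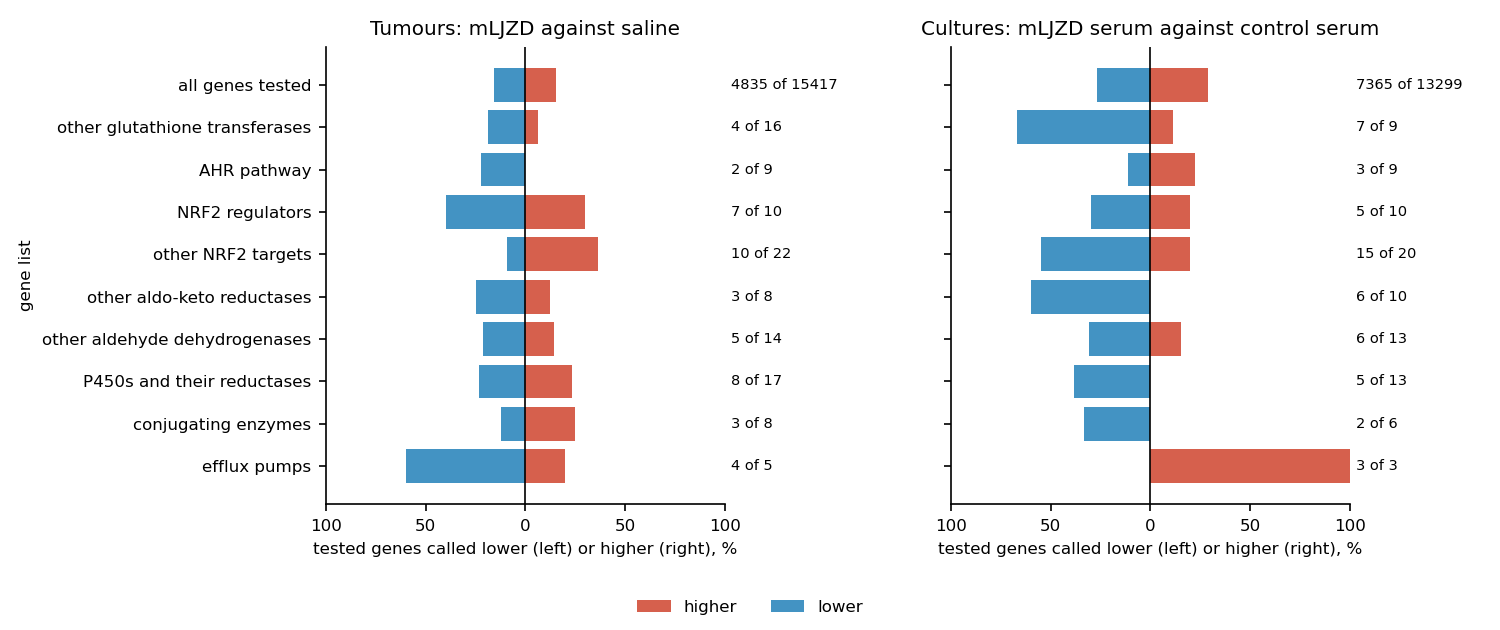
Share of the tested genes of each list (vertical axis) called lower (left, blue) or higher (right, red) by edgeR at an adjusted p under 0.05, in percent, for mLJZD against its control in tumours and in cultures, with called and tested genes written at the right. The top row gives all genes tested, 4835 of 15417 called in tumours and 7365 of 13299 in cultures. Of the NRF2 targets 8 were higher and 2 lower in tumours, and 4 higher and 11 lower in cultures, where the length trend was not removed.

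The effect in tumours minus the effect in cultures was fitted over all 8 libraries. Of the 10 genes 6 were called, 4 of them higher and 2 lower, while over all 16090 genes tested 44.4% were called, 23.8% higher and 20.5% lower, and nothing is read from the count. The difference was 1.22 (SE 0.10) on the log2 scale for Gstp1, 0.81 (SE 0.12) for Gstm1, 2.94 (SE 0.33) for Selenbp1 and -3.85 (SE 0.68) for Gstp2. With the trend removed these were 0.70 for Gstp1, 0.45 for Gstm1, 2.60 for Selenbp1 and -4.33 for Gstp2. For Gsta4, whose log2 fold changes were -0.77 and -0.74, the difference was 0.06 (SE 0.20), or -0.25 with the trend removed. For Tiparp it was 0.23 (SE 0.11) and not called. It was called at 0.61 (SE 0.10) with the trend removed and at 0.34 without library 2 of the mLJZD cultures. Among all calls 53.7% were higher, against 39.7% with scaling to library totals and 63.7% with the trend removed.

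Where the genes are expressed without mLJZD was read from saline tumours against control cultures, a contrast that is not known to have entered the choice. It shares its libraries with the mLJZD contrasts, which may have entered it, so the p-values of the 10 genes in it are descriptive only. Of the 10 genes 9 were tested, with 4 higher and 3 lower in saline tumours, while over all 15332 genes tested 80.6% were called, 44.9% higher and 35.7% lower. Material and handling cannot be told apart here. Cyp1b1 had 180 and 172 counts in saline tumours, or 8.92 ± 0.319 CPM, against no count in control cultures. This was at least 135.6-fold higher, taking 3 counts over the group as the floor. Aldh3a1 was at 74.2 ± 4.71 CPM in saline tumours, against 5.94 ± 1.34 CPM in control cultures, a log2 change of 3.48 (SE 0.12, edgeR adjusted p = 1.4e-09). Gstp2 was at 4.33 ± 0.481 CPM in saline tumours, against 0.619 ± 0.272 CPM in control cultures (2.64, SE 0.34, edgeR adjusted p = 3.38e-05). Cyp1b1, Aldh3a1 and the minor pi-class copy thus had their higher level in saline tumours.

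Gstp1, Gstm1 and Gsta4 showed the opposite order. Gstp1 was at 119.0 ± 7.77 CPM in saline tumours, against 513.8 ± 2.25 CPM in control cultures, a log2 change of -2.27 (SE 0.06, edgeR adjusted p = 1.23e-10). Gsta4 was at 7.19 ± 0.547 CPM in saline tumours, against 31.3 ± 2.19 CPM in control cultures (-2.28, SE 0.12, edgeR adjusted p = 2.08e-08), and Gstm1 at 38.4 ± 1.04 CPM, against 72.5 ± 2.78 CPM (-1.08, SE 0.07, edgeR adjusted p = 1.07e-07). Tiparp was alike in level, at 69.9 ± 2.11 CPM in saline tumours, against 63.5 ± 1.46 CPM in control cultures, and was not called (-0.02, SE 0.06, edgeR adjusted p = 0.719), though it was called lower with the trend removed (-0.31). Nqo1 was not called either (-0.36, SE 0.26, edgeR adjusted p = 0.226, and between 0.0449 and 0.772 over the alternatives), except without library 1 of the control cultures (-0.63). Selenbp1 was at 6.84 ± 0.405 CPM in saline tumours, against 4.18 ± 0.243 CPM in control cultures (0.55, SE 0.18, edgeR adjusted p = 0.0166). That call was lost in 4 of 11 alternatives, with adjusted p-values between 0.00141 and 0.159, among them those without library 1 (0.62) or library 2 (0.48) of the saline tumours and without library 2 of the control cultures (0.45). Akr1c18, not tested, had 6 counts in saline tumours against 23 in control cultures, a ratio of 0.301 (exact 95% interval 0.1004 to 0.762).

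Other genes of the pathways followed both patterns. Ahr was at 121.9 ± 6.15 CPM in saline tumours, against 23.7 ± 0.968 CPM in control cultures (log2 fold change 2.2, SE 0.07, edgeR adjusted p = 6.29e-10), and Nfe2l2 at 226.7 ± 4.04 CPM, against 87.5 ± 1.71 CPM (1.21, SE 0.05, edgeR adjusted p = 4.7e-09). Of 22 further NRF2 targets 20 were lower in saline tumours and 2 higher, with a median of -1.30, against 0.15 over all genes tested. Of all genes tested 44.9% were called higher and 35.7% lower. The ferritin light chain Ftl1 was at 490.0 ± 16.2 CPM in saline tumours, against 4650 ± 124 CPM in control cultures (-3.41, SE 0.06, edgeR adjusted p = 1.26e-11). The 2 higher ones were the carbonyl reductases Cbr1 and Cbr3, of which Cbr3 had no count in control cultures. Of 17 further transferases tested, 10 were higher and 6 lower in saline tumours, while 80.6% of all genes tested were called. Hpgds, the prostaglandin D synthase of blood cells, had 11.3 ± 0.0309 CPM in saline tumours against no count in control cultures, and Gsta1 had 3 counts in saline tumours against 222 in control cultures, a ratio of 0.0156 (exact 95% interval 0.00320 to 0.0462). Gstt1, Gstt2, Gstt3 and Gstp3 had no count in any culture, and in saline tumours they lay between 0.960 and 1.98 CPM.

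The genes with the most similar profile were sought for Nqo1, Gstp2 and Selenbp1 among 13293 genes, by the Euclidean distance of log2 CPM centred on the gene's mean over the 8 libraries. For Nqo1 these were Ptgr1 (distance 0.556), Macrod2 (0.727) and the antisense gene Gm10069 (0.759). Ptgr1 averaged 5.75 CPM in mLJZD tumours and 13.6 CPM in saline tumours, and 13.2 CPM in mLJZD cultures and 16.6 CPM in control cultures. For Gstp2 the nearest were Gpd1 (1.65), Mlxipl (1.66) and the clock gene Per2 (2.11), all at larger distances than for Nqo1. Per2 averaged 11.2 CPM in mLJZD tumours and 38.3 CPM in saline tumours, and 15.9 CPM in mLJZD cultures and 13.8 CPM in control cultures. For Selenbp1 they were Mmp23 (0.683), Ccpg1os (0.993) and Zfp821 (1.07), each lower in mLJZD cultures than in control cultures. The search selects on the profile over these same libraries, so likeness in such levels follows from it.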

How the data were processed

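CT26 tumours and CT26 cultures were profiled by RNA-seq in 4 groups of 2 libraries. The authors deposited raw counts for every gene in a single table, which holds a column for each of the libraries. Trim Galore, FastQC 0.12.1, SAMtools 1.14, HISAT2 2.2.1, featureCounts 2.0.3 and the build GRCm39 are named in the submitters' processing notes. Annotation release, strand setting and the treatment of reads with several places are not stated. Without strand, overlapping and antisense genes cannot be told apart. Symbols, exon lengths and transcripts came from GENCODE M21, on an earlier build, which named 52029 of 56953 identifiers; chromosomes are those of that annotation, and promoter windows are RefSeq's on GRCm38.p6.

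The test was the two-sided quasi-likelihood F test of edgeR 4.0.16 (R 4.3.3), after TMM scaling and filterByExpr, and p-values were adjusted over all genes tested by Benjamini-Hochberg, with calls under 0.05. Each pair of groups, in tumours, in cultures and between the controls, had its own fit of 4 libraries, and the difference between materials a fit of 8. An SE is the log2 fold change over the root of F. CPM uses the library total, and TPM the exon length. An exact permutation test with groups of 2 cannot pass 0.05, so gene p-values rest on the model across genes. The steps were tested on simulated counts. Wilson and exact binomial intervals have a level of 95% and cover counting error only, as does the floor of 3 counts per group. The length and GC trend was fitted per library with mgcv 1.9.3 (8 basis functions) and removed as an offset, which left part of the length trend in cultures.

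Alternatives were library totals, upper-quartile scaling, DESeq2 1.42.0, no filter, the replicate number as a block, the trend removal, 1 fit of all libraries, each library left out, and the pi-class genes summed. The share of Gstp2 was added after the data were seen. The members and lists were chosen with earlier results of these data known. Besides the 10 genes, the text names Ahr, Arnt, Ahrr, Nfe2l2, Keap1 and Bach1, and per list and comparison up to 2 called genes per direction with the largest change and at least 1 CPM in the higher group, not all of them printed (1 listed gene is not reported here); Cyp1a1, Gstp3, Gstp-ps, Selenbp2, Cbr1, Cbr3, the theta-class transferases and values of a listed gene in another comparison were named after their values were seen. Of 24 further transferase symbols 23 matched. Same-numbered libraries did not deviate together (correlations of -0.079 in tumours, 0.016 in cultures and -0.013 in control groups), so the numbers were not taken to pair them. No library was a duplicate of another: chi-square per degree of freedom between libraries of a group was between 2.69 and 11.6.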

Additional observations from a re-analysis of the deposited data

Results flagged for a closer look

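Of the 10 genes 6 had an effect of mLJZD that differed between tumours and cultures by the edgeR interaction test over 8 libraries, as did 44.4% of the 16090 genes tested, and nothing is read from that count. Since both effects may have entered the choice of the genes, the values are descriptions. The log2 fold change in tumours minus that in cultures was -0.69 for Aldh3a1, with lower levels under mLJZD in either material. The value was 0.81 for Gstm1, lower in both, and 1.22 for Gstp1, near its control in tumours and lower in cultures. It was -3.85 for Gstp2, lower in tumours with overlapping libraries in cultures, and 2.94 for Selenbp1, lower in cultures. With the length and GC trend removed these were -0.98 for Aldh3a1, 0.45 for Gstm1, 0.70 for Gstp1, -4.33 for Gstp2 and 2.60 for Selenbp1. For Akr1c18 the difference was 7.43, a fitted value that depends on the prior count because 1 mLJZD culture had no count. Its count ratios were 20.4 in tumours and 0.12 in cultures. No group had enough libraries for a check of single outlying libraries.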

How the results depend on the processing

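The alternatives were the same for each comparison, and fits of the interaction also left out each of the 8 libraries. In tumours 4835 genes were called, and between 1087 and 3536 with 1 library left out; it was 1087 without library 1 of the mLJZD tumours and 1974 without library 2, with 4 or 5 of the 10 genes called in place of 8, and 2 or 3 called lower in place of 5. In cultures 0 of the 10 genes were called higher with the trend removed, in place of 1, and without library 1 of the control cultures 5 were called lower between the control groups, in place of 3. With the replicate block 7, 6, 7 and 6 of the 10 genes were called in tumours, cultures, control groups and the interaction, and 4461, 7343, 12125 and 7024 of all genes; Gstp1 in tumours (0.17) was the member call that the block ended. Each lone library of a group was assumed to vary like the others.

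The sign turned, for genes not called or calls lost, in these fits. In tumours Ahrr was at -0.0087 with library totals, and leaving out libraries gave it values between -0.80 and 1.08 and Ahr values between -0.12 and 0.0034. In cultures Keap1 was at 0.0012 with library totals, and with the trend removed Gstp2 was at 0.43, Ahr at -0.0015, Keap1 at 0.16, Maff at 0.020 and Slc7a11 at -0.24; leaving out libraries gave Gstp2 between -0.45 and 0.44. Between the control groups Tiparp was at 0.14 with library totals and between -0.0455 and 0.0058 with libraries left out. In the interaction Gsta4 was at -0.12 with library totals, -0.063 without the filter and -0.25 with the trend removed, and between -0.025 and 0.14 with libraries left out; Ahrr was at -0.013, at -0.019 without the filter and between -0.80 and 1.09 with libraries left out; Xdh was at 0.10 and Abcc1 at 0.14 with the trend removed. The cause was not tested. Upper-quartile scaling moved the median log2 fold change of all genes in cultures to -0.12 from -0.013, and library totals moved it to 0.31 from 0.15 between the control groups and to -0.095 from 0.066 in the interaction. Nqo1, Gstp2 in mLJZD tumours and cultures, and Akr1c18 rest on few counts, which limits their precision.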
